A study of Mus musculus with 6 samples.

Results

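The genes described here are 7 members of the whey acidic protein (WAP) family, Wfdc17, Wfdc18, Wfdc21, Slpi, Wfdc3, Wfdc1 and Wfdc2, in a fibroblastic reticular cell (FRC) line from the mouse. FRCs are stromal cells of the lymph node that lay down and ensheathe its fibre network. The 7 genes were selected by symbol from the 55367 gene symbols of the unfiltered count table, with their levels in these libraries known, so their differences between media are given as descriptions. The line was kept for 96 h in conditioned medium, replaced every 48 h. FRC control medium had been conditioned by the same FRC line, and the tumour media had been conditioned by the mouse mammary carcinoma lines 67NR or 4T1, each for 24 h in RPMI without additives. Serum at 2% and penicillin-streptomycin at 1% were then added to every medium, the control medium included, and no group received unconditioned medium. Each medium has 2 libraries, replicates 1 and 2, all from 1 cell line with no allele or genotype given. The labels do not say that replicates were separate cultures, so a p-value here measures only how far these libraries spread, which may be technical.

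WAP proteins are small secreted proteins folded around a compact core of disulfide bonds. Several of them bind and block serine proteases such as neutrophil elastase, and some also act against microbes or dampen inflammatory signalling. Slpi, secretory leukocyte protease inhibitor, is the best studied of these and is made by epithelia and by phagocytes. Wfdc17 was described in activated macrophages and microglia, and Wfdc18 as an extracellular peptidase inhibitor of the mammary gland.

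Total counts per library ran from 13.6 to 21.8 (in units of 1e6 counts), and 15055 genes were tested. Levels are counts per 1e6 counts (CPM) after TMM scaling (the trimmed mean of M-values method), on which a single count stood for 0.0463 to 0.0743 CPM. Mitochondrial genes took 1.3 and 1.9% of counts in control medium, 1.96 and 2.28% in 67NR medium and 2.11 and 2.37% in 4T1 medium. The label of the cells was checked against 17 FRC markers. Pdpn, the surface glycoprotein that marks these cells, stood at 124 ± 7.67 CPM in control medium, 103 ± 8.76 in 67NR medium and 105 ± 6.0 in 4T1 medium (SD, n = 2), while the defining lymph node stroma genes Ccl19, Ccl21a and Thy1 had no count in any of the 6 libraries.

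Of the 7 members, 5 had counts and the same 5 were tested, whereas Wfdc1 and Wfdc2 had 0 counts in all 6 libraries. Wfdc17, Wfdc18, Wfdc21 and Slpi were highest in both 4T1 libraries, and Wfdc3 was highest in both 67NR libraries and lowest in both 4T1 libraries. In the comparison of 4T1 with control medium, 4 members were past the threshold as higher and 1 as lower, where 39.1% of all genes tested were called in either direction (edgeR quasi-likelihood test, adjusted p under 0.05). For 67NR against control medium, 3 members were past it, all higher (Wfdc18, Wfdc21 and Wfdc3), with 27.6% of all genes called. For 4T1 against 67NR medium, 4 were higher and 1 lower, with 43.4% of all genes called. These levels served to choose the members, and Wfdc17 and Slpi passed the filter for testing only through their 4T1 libraries, so nothing is read from the counts.

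**Figure D1:**
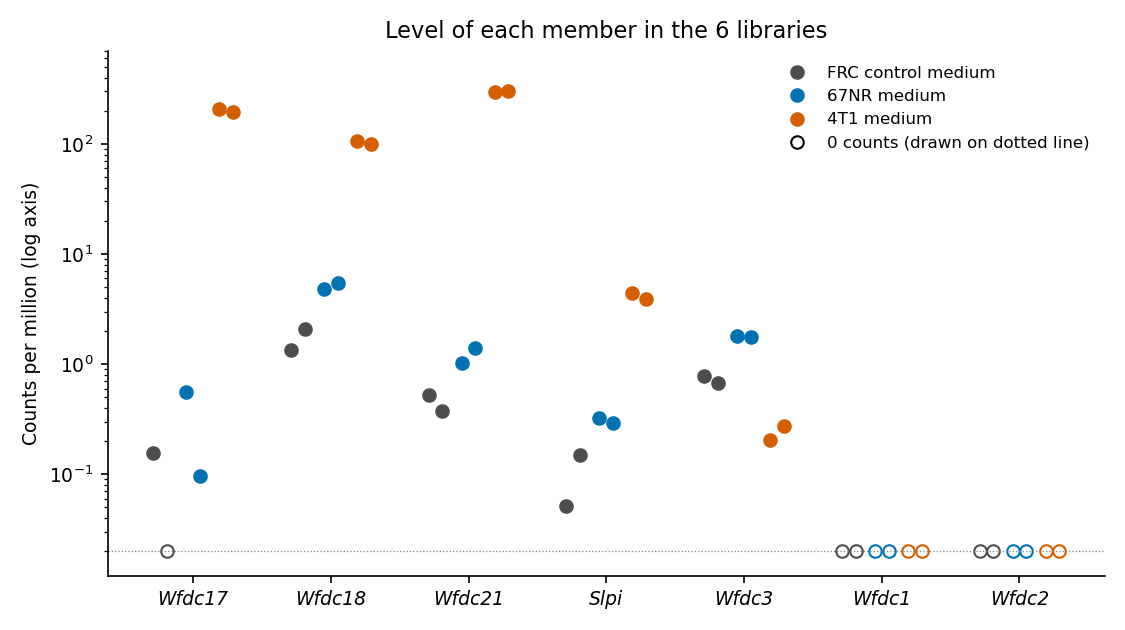
Level of each member in CPM (log axis) in every library, with filled points for the 6 libraries coloured by medium and open points on the dotted line for 0 counts. Wfdc17, Wfdc18 and Wfdc21 reach 99.0 to 303 CPM in 4T1 medium against at most 5.45 CPM in the other media, and Wfdc3 runs the other way.

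Wfdc17, Wfdc18 and Wfdc21 lie side by side on chromosome 11 (GRCm38, GENCODE M21), all on the plus strand. Wfdc17 spans chr11:83703991-83706268, Wfdc18 spans chr11:83709015-83711348 after a gap of 2746 bases, and Wfdc21 spans chr11:83746940-83752642 after a gap of 35591 bases. Each has 3 exons, and their merged exons add up to 533, 1220 and 434 bases. The coding sequences of Wfdc17 and Wfdc18 were 81.5% identical over 222 aligned bases, against 62.6% for Wfdc17 with Wfdc21 and 64.4% for Wfdc18 with Wfdc21, and all other pairs among the 7 members were between 56.5 and 66.5%. No stretch of 50 bases in any member's transcripts occurs in a transcript of another gene, and the longest run shared by the Wfdc17 and Wfdc18 coding sequences was 20 bases.

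The regions just upstream of Wfdc17 and Wfdc18 are shown because both genes had their highest levels in the 4T1 libraries and their upstream sequences can be aligned. They come from RefSeq promoter windows (GRCm38.p6, 250 bases before to 50 after the RefSeq start), which 5 of the 7 members have, and entries for Wfdc21 and Wfdc1 were not matched. The windows of Wfdc17 and Wfdc18 aligned over 203 bases, of which 147 were identical (72.4%), with 27 gap letters. The stretches printed here are the part of that alignment before the GENCODE gene start, chr11:83703816-83703990 for Wfdc17 and chr11:83708833-83709014 for Wfdc18, plus strand, 5′ to 3′, and capitals mark runs of at least 6 bases identical in the alignment.
Wfdc17: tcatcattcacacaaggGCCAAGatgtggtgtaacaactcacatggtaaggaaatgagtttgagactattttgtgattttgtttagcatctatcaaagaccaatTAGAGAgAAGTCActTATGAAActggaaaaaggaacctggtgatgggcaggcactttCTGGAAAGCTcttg
Wfdc18: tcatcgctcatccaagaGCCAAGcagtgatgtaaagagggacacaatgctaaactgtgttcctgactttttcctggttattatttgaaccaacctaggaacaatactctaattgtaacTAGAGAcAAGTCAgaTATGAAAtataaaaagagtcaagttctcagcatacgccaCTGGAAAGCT

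The last shared run, CTGGAAAGCT, has its last base 5 bases before the first base of Wfdc17 in GENCODE and 1 base before that of Wfdc18, and 42 of all 32851 RefSeq windows (0.128%) hold it on either strand. A further stretch, ATTGACTGCNTCCTCCCACA, in which N marks their single mismatch, lies inside the first GENCODE exon of both genes, ending 37 and 39 bases into it, and was found in the windows of these genes alone (2 of 32851). That stretch was picked as the longest ungapped part of their alignment with 1 mismatch, so its presence in both windows was given in advance. The starts given by RefSeq and GENCODE differ for both genes, 83704056 against 83703991 for Wfdc17 and 83709004 against 83709015 for Wfdc18. Short patterns for 5 factor families were searched in the members' windows on both strands. They were NF-kB (GGNNTTNCC, in 16.0% of all windows), C/EBP (TTGCNNAA, 10.8%), STAT (TTCNNNGAA, 8.30%), AP-1 (TGANTCA, 7.81%) and ISRE (TTCNNTTTC, 8.56%). The one match among the members, overlapping no other, was a C/EBP pattern on the minus strand of the Slpi window, TTGAGCAA, whose first base lies at -241 from the RefSeq start. A match or its absence describes these letters in this window only.

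Wfdc21, known as a Wdnm1-like secreted protein, had 10 and 5 counts in the control libraries, 22 and 29 in the 67NR libraries and 4391 and 5559 in the 4T1 libraries. Its level was 0.519 and 0.372 CPM in control medium, 1.02 and 1.41 CPM in 67NR medium and 297 and 303 CPM in 4T1 medium. The 3 media did not overlap, and the 4T1 libraries stood far above the other 4. The log2 fold change in level was 9.33 ± 0.14 (SE) for 4T1 against control medium, a ratio of pooled levels of 655 with a 95% counting interval of 397 to 1170. For 67NR against control medium it was 1.39 ± 0.33, a ratio of 2.64 (1.46 to 5.06), and for 4T1 against 67NR medium 7.94 ± 0.12, a ratio of 248 (188 to 333). Counting intervals are exact binomial intervals on the pooled counts and cover counting error only. The call for 67NR against control was lost without control replicate 2 (edgeR adjusted p = 0.0559) or without 67NR replicate 2 (edgeR adjusted p = 0.0795).

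Wfdc17 had 3 and 0 counts in the control libraries, 12 and 2 in the 67NR libraries and 3035 and 3592 in the 4T1 libraries. That is 0.156 and 0 CPM in control medium, 0.556 and 0.0973 CPM in 67NR medium and 205 and 196 CPM in 4T1 medium. Both 4T1 libraries were far above all others, while the 67NR and control libraries overlapped. The ratio of pooled levels between 4T1 and control medium, 2180 (746 to 10574), rests on 3 control counts that all came from replicate 1. It was 1283 without control replicate 2, and without control replicate 1, which leaves 0 control counts, the level in 4T1 medium was at least 897-fold higher (against 3 counts in the remaining control library). Against 67NR medium the ratio was 602 (358 to 1101), and it moved to 2054 without 67NR replicate 1 and to 360 without 67NR replicate 2. The 2 libraries of 67NR medium differed from each other beyond counting error for this gene (exact binomial test, two-sided, p = 0.0133), which holds for none of the other members in that medium. For 67NR against control medium the pooled ratio was 3.62 (1.01 to 19.7), and it was 1.06 without 67NR replicate 1 and 6.06 without 67NR replicate 2 (edgeR adjusted p = 0.0422 without the latter, 0.181 with all libraries).

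Wfdc18 was the most counted of the 3 neighbours outside 4T1 medium, with 26 and 28 counts in control medium and 104 and 112 in 67NR medium, and it had 1569 and 1817 in 4T1 medium. Its level was 1.35 and 2.08 CPM in control medium, 4.82 and 5.45 CPM in 67NR medium and 106 and 99.0 CPM in 4T1 medium. The media did not overlap, and the order was control, 67NR and 4T1 as for Wfdc21. The log2 fold change was 5.95 ± 0.14 (SE) for 4T1 against control medium, with a ratio of 61.9 (47.3 to 82.5). It was 1.63 ± 0.20 for 67NR against control medium, with a ratio of 3.11 (2.30 to 4.27), and 4.32 ± 0.11 for 4T1 against 67NR medium, with a ratio of 19.9 (17.4 to 23.0). Between 4T1 and control medium the counting interval of Wfdc18 lay wholly below those of Wfdc21 and Wfdc17. Between 67NR and control medium the intervals of all 3 genes overlapped.

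**Figure D2:**
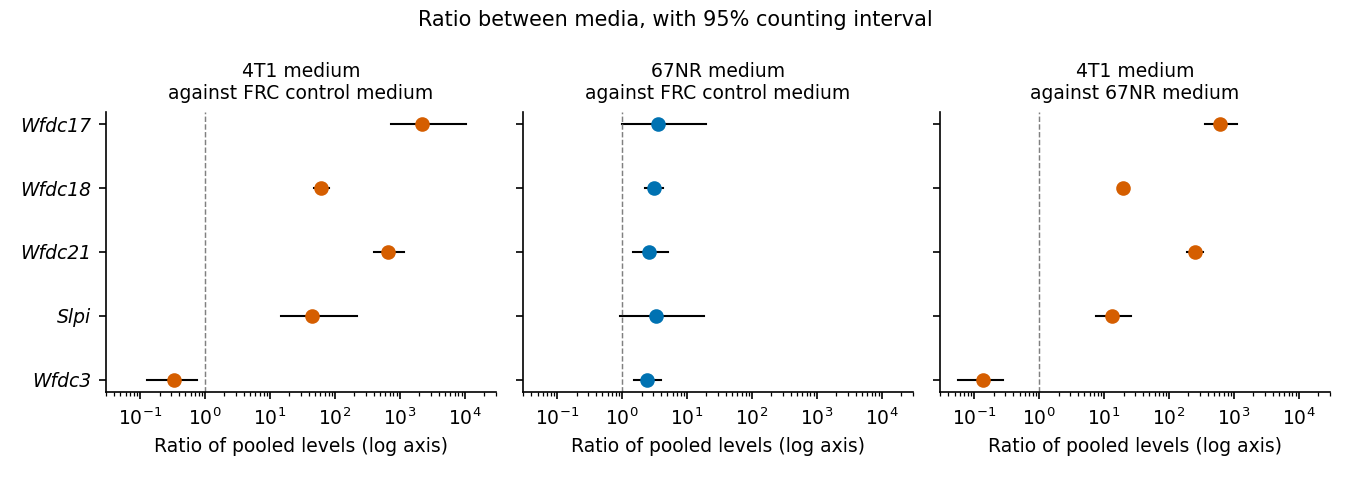
Ratio of pooled levels between media for the 5 members with counts (points, log axis) with 95% counting intervals (lines), in 3 panels, and a dashed line at a ratio of 1. Wfdc17, Wfdc21, Wfdc18 and Slpi lie to the right of that line in both comparisons with 4T1 medium, at ratios from 13.4 to 2180, and Wfdc3 lies to its left.

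The mix of the 3 neighbours differed between media. Wfdc18 supplied 66.7 and 84.8% of their summed counts in the control libraries (39 and 33 counts) and 75.4 and 78.3% in the 67NR libraries (138 and 143 counts), but 17.4 and 16.6% in the 4T1 libraries (8995 and 10968 counts). The exact 95% intervals of these shares ran from 49.8 to 94.9% over the control and 67NR libraries and from 15.9 to 18.2% over the 4T1 libraries, so they did not overlap. Wfdc17 went the other way, at 7.69 and 0% in control medium (0 of 33 counts allows up to 10.6%, exact interval), 8.70 and 1.40% in 67NR medium and 33.7 and 32.7% in 4T1 medium. Wfdc21 held 25.6 and 15.2%, then 15.9 and 20.3%, then 48.8 and 50.7%. These are shares of counts among genes of unequal length, so they compare libraries and not genes.

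**Figure D3:**
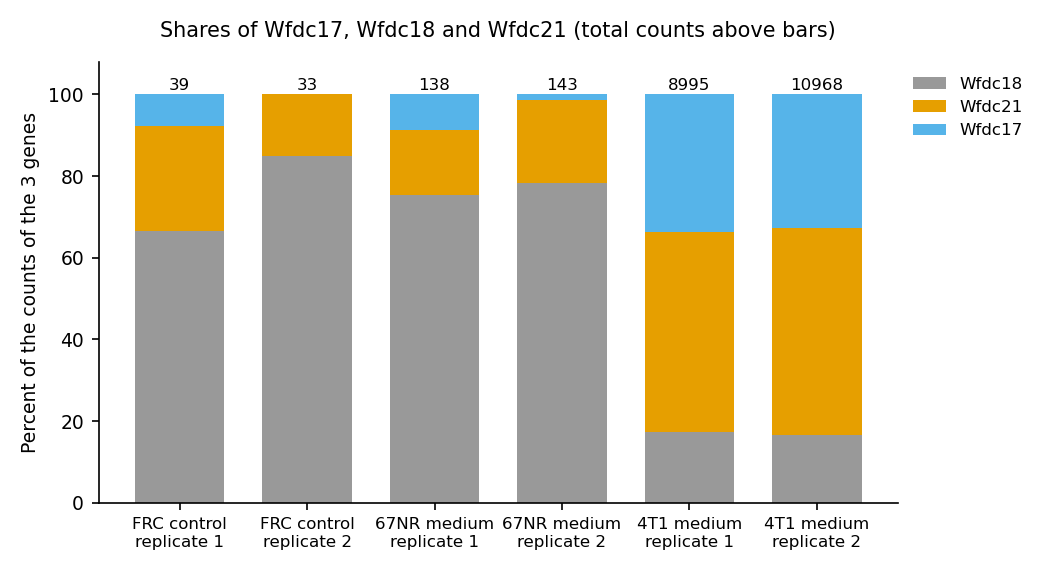
Share of Wfdc18, Wfdc21 and Wfdc17 in their summed counts, in percent, 1 bar per library, with the summed counts above each bar. Wfdc18 fills 66.7 to 84.8% of the bars of control and 67NR medium and at most 17.4% of the 4T1 bars.

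Per length the order of the members changed between media. On the scale of CPM per kilobase of exon, control medium had Wfdc18 at 1.41 ± 0.424, Wfdc21 at 1.03 ± 0.240, Wfdc3 at 0.286 ± 0.0307, Wfdc17 at 0.146 ± 0.207 and Slpi at 0.0850 ± 0.0580 (SD, n = 2). There the libraries of Wfdc18 and Wfdc21 overlapped, as did those of Wfdc3 with Wfdc17 and of Wfdc17 with Slpi. In 67NR medium the order was the same, with Wfdc18 at 4.21 ± 0.366, Wfdc21 at 2.80 ± 0.639, Wfdc3 at 0.703 ± 0.0154, Wfdc17 at 0.613 ± 0.608 and Slpi at 0.261 ± 0.0194, and the libraries of Wfdc17 overlapped those of Wfdc3 and Slpi. In 4T1 medium Wfdc21 led at 691 ± 9.76, followed by Wfdc17 at 376 ± 12.6, Wfdc18 at 84.0 ± 4.11, Slpi at 3.53 ± 0.356 and Wfdc3 at 0.0939 ± 0.0194, with no overlap between neighbours in that order. Among the 14741 tested genes with an exon length, Wfdc21 ranked 95th and 80th by this measure in the 4T1 libraries and 11755th and 12268th in the control libraries. Wfdc17 ranked 178th and 173rd in 4T1 medium, and Wfdc18 ranked 740th and 739th. The 7 members together took 0.0626 and 0.0606% of all counts in the 4T1 libraries, of which the 3 neighbours on chromosome 11 made up 99.2 and 99.3%. Those 3 made up 70.9 to 77.3% of member counts in the other libraries.

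Slpi lies on chromosome 2, at chr2:164354070-164389095 on the minus strand. Its counts were 1 and 2 in control medium, 7 and 6 in 67NR medium and 66 and 71 in 4T1 medium, or 0.0519 and 0.149 CPM, 0.324 and 0.292 CPM and 4.46 and 3.87 CPM. The media did not overlap, and even the 4T1 libraries held little Slpi beside the chromosome 11 members. The ratio of pooled levels was 45.1 (15.1 to 221) for 4T1 against control medium, on 3 control counts, and it was 27.8 without control replicate 1 and 79.6 without control replicate 2. For 4T1 against 67NR medium the log2 fold change was 3.72 ± 0.34 (SE), with a ratio of 13.4 (7.58 to 25.8). For 67NR against control medium the ratio was 3.36 (0.925 to 18.4), an interval that includes 1, and it was 2.08 without control replicate 1 and 5.94 without control replicate 2. By rank of length-scaled level Slpi was 8828th and 9418th of 14741 genes in the 4T1 libraries. It was absent from the authors' filtered table, as were Wfdc1 and Wfdc2.

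Wfdc3, a family member of little known function, lies at chr2:164731180-164745931 on the minus strand. Its counts were 15 and 9 in control medium, 39 and 36 in 67NR medium and 3 and 5 in 4T1 medium. These correspond to 0.779 and 0.669 CPM, 1.81 and 1.75 CPM, and 0.203 and 0.272 CPM. The media did not overlap, and the direction in 4T1 medium was opposite to that of the other 4 members with counts. The log2 fold change was -1.57 ± 0.51 (SE) for 4T1 against control medium, 1.27 ± 0.34 for 67NR against control medium and -2.85 ± 0.42 for 4T1 against 67NR medium. As ratios of pooled levels these were 0.329 (0.128 to 0.757), 2.43 (1.51 to 4.02) and 0.136 (0.0565 to 0.281). Both calls against control medium were lost when either library of either group compared was left out, with edgeR adjusted p from 0.0563 to 0.137 for 4T1 and from 0.0557 to 0.0731 for 67NR, and with DESeq2 (adjusted p = 0.107 and 0.128). The call for 4T1 against 67NR medium held in each of those fits.

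Wfdc2, an epididymal secretory protein also used as an ovarian tumour marker, lies between Slpi and Wfdc3 at chr2:164562413-164568510, 173317 bases from Slpi and 162669 from Wfdc3. Wfdc1, a secreted protein of prostate stroma that restrains growth, lies at chr8:119666365-119688222. Both were at 0 counts in all 6 libraries. A count of 0 allows up to 3 counts over a group, which is 0.0917 CPM in control medium, 0.0712 CPM in 67NR medium and 0.0905 CPM in 4T1 medium, and covers counting error only.

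The family holds further genes with a WAP domain, and 16 of them were looked up, among them Wap itself, the whey acidic protein of milk, Eppin and the growth factor inhibitors Wfikkn1 and Wfikkn2. Of these, 9 had no count in any library and 2, Wfdc12 and Wfikkn1, had enough counts to be tested. Wfdc12 stood at 1.19 and 0.818 CPM in control medium, 1.81 and 1.75 CPM in 67NR medium and 1.15 and 0.708 CPM in 4T1 medium, so that only 67NR medium stood apart. It fell by 0.96 on the log2 scale between 67NR and 4T1 medium (edgeR adjusted p = 0.0365), a call lost without either 67NR library, without 4T1 replicate 2, with DESeq2 and after thinning to the smallest library. Against control medium 0 of the 2 passed in either tumour medium by edgeR or by DESeq2, 1 was called higher in 67NR medium after thinning to the smallest library, and at an unadjusted p under 0.05 there were 0 for 4T1 and 2, both higher, for 67NR medium.

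Around the chromosome 11 members, within 100 kb, the annotation has 15 other genes, and 2 of them were tested. Heatr6, a HEAT repeat gene that begins 1053 bases after the end of Wfdc21, was at 52.8 and 58.8 CPM in control medium, 62.5 and 59.5 CPM in 67NR medium and 110 and 137 CPM in 4T1 medium, a log2 fold change of 1.16 ± 0.10 (SE, edgeR adjusted p = 1.2e-06) for 4T1 against control. The non-coding transcript E230016K23Rik was at 1.55 ± 0.0870 CPM, 2.24 ± 0.413 and 11.6 ± 3.57 (SD, n = 2), with a log2 fold change of 2.90 ± 0.26 (SE, edgeR adjusted p = 1.7e-06). Both rose in 4T1 medium, by less than any of the 3 members. Between 67NR and control medium neither passed the test, with log2 fold changes of 0.13 and 0.52. The chemokine gene Ccl9, 125354 bases before Wfdc17 and so outside this window, was at 4.96 ± 0.553 CPM, 7.34 ± 0.289 and 245 ± 8.62, and rose by 5.64 ± 0.10 on the log2 scale in 4T1 medium against control (edgeR adjusted p = 2.4e-13). The chemokine genes Ccl3 and Ccl4, which lie between Ccl9 and Wfdc17, reached at most 0.0487 and 0.149 CPM in any medium.

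**Figure D4:**
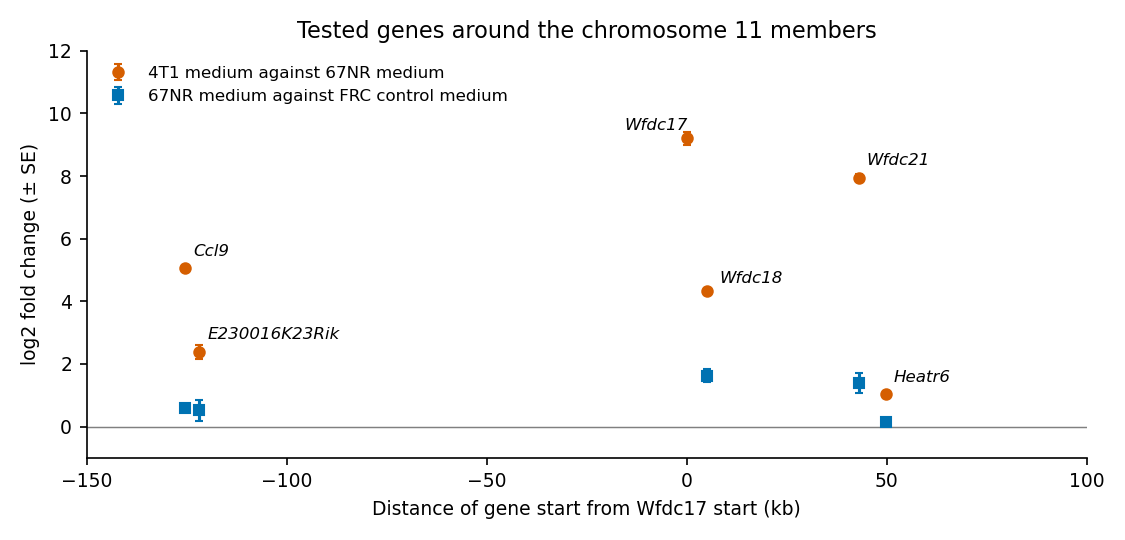
log2 fold change (± SE) of tested genes against the distance of their start from that of Wfdc17 (kb), for 4T1 against 67NR medium (circles) and 67NR against control medium (squares). Wfdc17 has no square because its control libraries held 3 counts. The 3 members stand at 4.32 to 9.21 for 4T1 against 67NR medium and Heatr6, next to Wfdc21, at 1.02.

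On chromosome 2, 44 other genes lie within 100 kb of Slpi, Wfdc2 or Wfdc3, and 14 were tested. Of these, 1 was higher and 4 were lower in 4T1 than in control medium, 4 were higher and 1 lower in 67NR than in control medium, and 2 were higher and 4 lower in 4T1 than in 67NR medium. Over all genes tested, 39.1, 27.6 and 43.4% were called in these comparisons, so nothing is read from the counts of neighbours. Distances are taken from GENCODE gene spans, and that of Slpi, chr2:164354070-164389095, covers 3 transcripts with merged exons of 1180 bases. Matn4, which encodes a matrilin of the extracellular matrix and lies 298 bases from that span, was at 4.31 and 3.42 CPM in control medium, 10.9 and 9.73 CPM in 67NR medium and 1.49 and 1.14 CPM in 4T1 medium. Its order over the media was that of Wfdc3 and not that of its neighbour Slpi. Sdc4, the cell surface proteoglycan syndecan-4 and 35152 bases from Slpi, was the gene called higher in 4T1 than in control medium, at 117 and 128 CPM in control medium, 147 and 142 CPM in 67NR medium and 324 and 315 CPM in 4T1 medium. Dnttip1, 52 bases from Wfdc3 and on the other strand, was nearly level, at 26.9 and 26.1 CPM, 28.4 and 27.2 CPM and 26.8 and 25.2 CPM, and passed no test. Around Wfdc1, 3 of 9 genes were tested, and 1 of them, Hsdl1, was lower in 4T1 than in control medium (log2 fold change -0.33, edgeR adjusted p = 0.0213).

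The tested genes whose profiles lay nearest to each member were found by Euclidean distance over the 6 libraries, on log2 CPM after subtracting each gene's own mean. These distances describe the likeness of levels in libraries that the members share with every other gene. Wfdc17 lay nearest to Hp (distance 1.84), the haemoglobin-binding protein haptoglobin, then to Lcn2 (2.12), an iron-siderophore-binding protein, and Serpina3n (2.14), a serine protease inhibitor, and its distance to Wfdc21 was 2.11. Wfdc21 lay nearest to Hp (1.30), to the metalloreductase Steap4 (1.35) and to Lbp (1.36), the lipopolysaccharide-binding protein. Wfdc18 lay nearest to Itih4 (0.783), to the chemokine Cxcl5 (1.03) and to Ccl9 (1.07). Hp and Wfdc17 had like levels, Hp being at 0.311 and 0 CPM in control medium, 0.463 and 0.681 CPM in 67NR medium and 197 and 184 CPM in 4T1 medium. Lcn2 rose from 1.94 ± 0.118 CPM in control medium to 2612 ± 70.3 in 4T1 medium and stood at 2.05 ± 0.407 in 67NR medium.

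Slpi lay nearest to Rgs16 (0.686), a regulator of G protein signalling, Plac8 (0.724) and the ion channel P2rx3 (0.778), and was closer to Wfdc18 (1.5) than to Wfdc17 (6.89) or Wfdc21 (5.39). Wfdc3 lay nearest to Il17rd (0.254), an inhibitor of fibroblast growth factor signalling, to the transcription factor Mycl (0.380) and to the ion channel P2rx6 (0.399). Il17rd was at 21.2 and 17.2 CPM in control medium, 44.0 and 46.1 CPM in 67NR medium and 6.56 and 7.57 CPM in 4T1 medium. It thus had more than 10 times the counts of Wfdc3 in every library, with the same order of media.

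**Figure D5:**
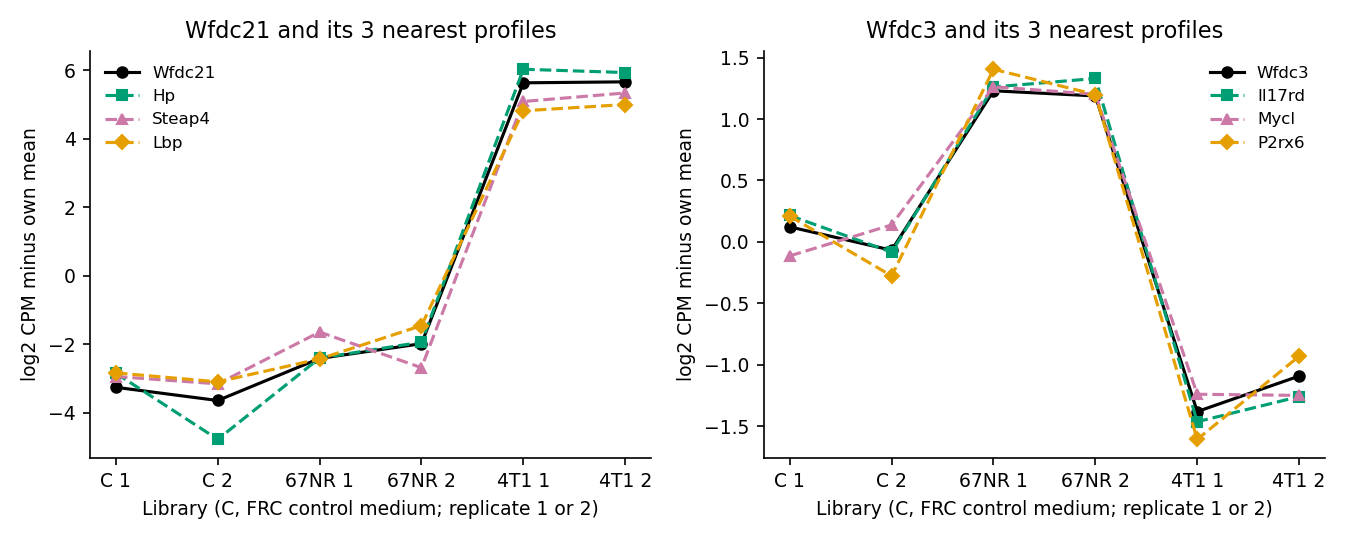
log2 CPM minus each gene's own mean in the 6 libraries for Wfdc21 (left) and Wfdc3 (right), each with its 3 nearest tested genes, where lines only join the points of a gene. Wfdc21 goes from -3.64 at its lowest to 5.66 in 4T1 medium, and Wfdc3 peaks at 1.23 in 67NR medium and drops to -1.38 in 4T1 medium.

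The proteases and inhibitors that share their biochemistry with the WAP family moved in several directions. A list of serine proteases, a class with some enzymes that WAP inhibitors act on, had 18 tested genes. It includes F3, a cofactor that is not itself a protease. Of the 18, 6 rose and 3 fell in 4T1 against control medium and 9 rose and 3 fell in 67NR against control. In 4T1 against 67NR medium 6 rose and 6 fell. Over all genes, 19.9 and 19.2%, 13 and 14.6%, and 23.5 and 19.9% were called higher and lower in these comparisons. C1s1, a complement protease, went from 22.2 ± 2.15 CPM in control medium to 62.5 ± 1.59 in 67NR medium and 324 ± 8.91 in 4T1 medium (SD, n = 2), and its partner C1ra from 47.5 ± 1.30 to 92.6 ± 3.55 and 304 ± 24.7. Prss23 fell by 1.28 ± 0.10 (SE) on the log2 scale in 4T1 against control medium. The neutrophil elastase gene Elane, whose product is a classic target of Slpi, had no count in any library. The median log2 fold change of the list was 0.09, 0.25 and 0.04, against 0.01, 0.00 and 0.03 for all genes tested. Without control replicate 2 or without 67NR replicate 1, 5 genes of the list in place of 9 were higher and 1 in place of 3 was lower in 67NR than in control medium.

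Genes listed with the serine protease inhibitors of other families, mainly serpins and inter-alpha-trypsin inhibitor chains, were tested for 25 symbols. In 4T1 against control medium 13 rose and 8 fell, and in 67NR against control 5 rose and 5 fell. In 4T1 against 67NR medium 12 rose and 4 fell. Over all genes tested, 19.9 and 19.2%, 13 and 14.6%, and 23.5 and 19.9% were called higher and lower in these comparisons. The median log2 fold changes were 1.14, 0.16 and 0.51, against 0.01, 0.00 and 0.03 for all genes tested. The first is that of Serpinf1, a serpin that is not an inhibitor. Serpina3n and others of the list that were low outside 4T1 medium passed the filter for testing only through their 4T1 libraries. These could only rise in 4T1 medium, so nothing is read from the counts of this list. Serpina3n went from 0.0743 ± 0.105 CPM in control medium and 0.166 ± 0.0278 in 67NR medium to 220 ± 20.9 in 4T1 medium (SD, n = 2), near the 200.4 ± 6.71 CPM of Wfdc17 there. Serpina3g rose by 3.18 ± 0.22 (SE) and Itih2 by 2.16 ± 0.10 on the log2 scale in 4T1 against control medium. In 67NR against control medium Serpine2, an inhibitor of thrombin and plasminogen activators, rose by 1.46 ± 0.07 and Serpinb9b fell by 1.83 ± 0.11. Leaving out 67NR replicate 1 left 3 in place of 5 higher in that comparison. Among 9 tested genes listed with the inhibitors of cysteine and metalloproteases, 3 rose and 5 fell in 4T1 against control medium. In 67NR against control 2 rose and 2 fell, and in 4T1 against 67NR medium 3 rose and 6 fell. Those that fell in 4T1 medium include Sparc, a matrix protein and not an inhibitor, by 0.45 against control and 0.48 against 67NR medium (log2). Timp1 rose by 2.39 ± 0.07 in 4T1 against control medium, to 784 ± 21.1 CPM, while Timp3 fell by 0.84 ± 0.06. The 3 higher in 4T1 than in 67NR medium became 1 without either 67NR library, and the 2 higher in 67NR than in control medium ranged from 1 to 4 as single libraries were left out.

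Of 30 genes of secreted antimicrobial proteins, with which Slpi is often grouped, 13 had no count in any library and 11 were tested. In 4T1 against control medium 7 rose and 2 fell, and in 4T1 against 67NR medium 8 rose and 3 fell. Over all genes tested, 19.9 and 19.2%, and 23.5 and 19.9%, were called higher and lower in these comparisons. For 67NR against control medium the shares were 13 and 14.6%. The median log2 fold changes were 3.69 and 2.21 for 4T1 against control and 67NR medium, against 0.01 and 0.03 for all genes tested. The first is that of Camp, which had 1 and 1 control counts. Camp, Saa1 and Saa2 were at 0 CPM in 67NR medium and at means of 0.862, 0.793 and 0.971 CPM in 4T1 medium. Against 67NR medium these genes could thus only rise. Camp and Saa3 passed the filter for testing only through their 4T1 libraries, so against control medium they could only rise as well. Nothing is read from the counts of this list. In 67NR against control medium 1 rose (0 without control replicate 1) and 0 fell by edgeR or DESeq2, also at an unadjusted p under 0.05. Saa3, an acute phase lipoprotein, went from 0.390 ± 0.184 CPM in control medium and 0.286 ± 0.0771 in 67NR medium to 869 ± 10.5 in 4T1 medium. In contrast to Wfdc18 and Wfdc21, Saa3 and Lcn2 did not pass the test between 67NR and control medium. Whether these genes differed from the members in that response was not tested.

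Regulators of the NF-kB, C/EBP and STAT3 pathways, which act on secreted inhibitors and acute phase genes in many cell types, were tested for 36 genes. Of these, 26 rose and 2 fell in 4T1 against control medium, and 11 rose and 2 fell in 67NR against control. In 4T1 against 67NR medium 25 rose and 4 fell. Over all genes tested, 19.9 and 19.2%, 13 and 14.6%, and 23.5 and 19.9% were called higher and lower in these comparisons. The median log2 fold changes of the list were 0.89, 0.16 and 0.74, against 0.01, 0.00 and 0.03 for all genes tested. Tlr4, the lipopolysaccharide receptor named in the title of the series, was at 25 ± 1.2 CPM in control medium, 28.0 ± 2.52 in 67NR medium and 41.7 ± 7.01 in 4T1 medium (SD, n = 2). Il6, a cytokine that activates STAT3, went from 1.87 ± 0.0815 and 1.33 ± 0.222 CPM to 75.4 ± 7.99 in 4T1 medium. Socs3, a feedback inhibitor of that pathway, went from 15.7 ± 1.93 and 18.6 ± 1.47 CPM to 217 ± 8.78. The 11 higher in 67NR than in control medium became 4 and 6 without control replicates 1 and 2, and 5 and 6 without 67NR replicates 1 and 2. The 2 lower became 1 without control replicate 2 or 67NR replicate 1 and 0 without 67NR replicate 2, and the 2 lower in 4T1 than in control medium became 1 without control replicate 1.

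Markers of other cells that make WAP proteins were low in all 6 libraries. Of 18 macrophage and monocyte markers, 10 had no count in any library, among them Adgre1, Fcgr1, Tyrobp, C1qa, Mrc1 and Spi1, and their summed level was 7.06 to 8.47 CPM in control medium, 11.6 to 12.6 CPM in 67NR medium and 5.07 to 5.50 CPM in 4T1 medium. Lyz2, a lysozyme gene of this list, was at mean levels of 5.25, 8.99 and 2.04 CPM in control, 67NR and 4T1 medium, while Cd68 was at 0.728, 0.780 and 1.19 CPM and Fcer1g at 0.0260, 0.0695 and 0.285 CPM. Lyz2 was called lower in 4T1 than in control medium (edgeR adjusted p = 0.00025) and than in 67NR medium (edgeR adjusted p = 1.1e-06). It was called higher in 67NR than in control medium (edgeR adjusted p = 0.0026). Csf1r, at 1.73, 2.25 and 1.72 CPM, and Cd68 passed no test. Of 14 neutrophil markers, 6 had no count, among them Mpo, Elane, S100a8 and S100a9, and the sum was 0.297 to 0.311 CPM, 1.36 to 1.62 CPM and 1.49 to 1.58 CPM. Camp, a granule peptide gene of neutrophils, had 1 and 1 counts in the control libraries, 0 and 0 in the 67NR libraries and 11 and 18 in the 4T1 libraries. It was past the threshold in 4T1 medium against control (edgeR adjusted p = 0.0017) and against 67NR medium (edgeR adjusted p = 0.00018). Camp passed the filter for testing through its 4T1 libraries alone, so these calls add nothing to its counts. Ngp, with 2 and 1 counts, and Csf3r, with 1 and 3, had counts in the 4T1 libraries only. Mmp9 was instead highest in 67NR medium, at mean levels of 0.141, 1.40 and 0.299 CPM in control, 67NR and 4T1 medium. It was called higher in 67NR than in control medium (edgeR adjusted p = 0.00062) and lower in 4T1 than in 67NR medium (edgeR adjusted p = 0.0014). Mmp9 passed the filter through its 67NR libraries alone, so these calls too add nothing to its counts. These single markers were named after their values were seen, and their part in the members' levels was not tested. Of 20 markers of mammary epithelium and tumour cells, 8 had no count, among them Epcam, Cldn3 and Wap, and the sum was 8.32 to 9.60 CPM, 6.57 to 6.86 CPM and 2.07 to 3.31 CPM. The 3 tested were Krt19, Cdh1 and Krt7. Mean levels of Krt19 were 6.01, 4.24 and 1.39 CPM in control, 67NR and 4T1 medium. Those of Cdh1 were 1.44, 1.18 and 0.230 CPM and those of Krt7 0.620, 0.642 and 0.609 CPM. Krt19 and Cdh1 were called lower in 4T1 than in control medium (edgeR adjusted p = 7.0e-06 and 0.0020). The sum of the 17 FRC markers, most of it from Col1a1 and Cxcl12, was 24254 to 24356 CPM, 25328 to 26295 CPM and 16100 to 16865 CPM. The markers did not move together. Of the 12 tested, 4 were higher and 5 lower in 4T1 than in control medium, with a median log2 fold change of 0.02. Over all genes tested, 19.9% were called higher and 19.2% lower, with a median of 0.01. Col1a1 fell from a mean of 13817 CPM in control medium to 6911 CPM in 4T1 medium. Cxcl12 was at 6292 and 6005 CPM in these media, and Dcn rose from 48.6 to 190 CPM. Fewer cells of a type and less RNA per cell cannot be told apart in these bulk libraries.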

How the data were processed

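Poly(A) RNA from the FRC line was made into directional libraries from 500 ng of total RNA and sequenced on an Illumina NextSeq500, per the labels' protocols. Whole-number read counts for each gene symbol were deposited by the authors both with and without a filter. The 14629 genes of the filtered table have identical values in the unfiltered one, which was used here. Per the submitters' processing notes, Subread, DESeq2 1.32.0 and the build mm10 were used. Settings of the alignment, and whether strand was used in counting, were not given in the sources used here. The counted exons of the members share no base with another gene in GENCODE M21, apart from 1 base of Slpi with Mir7678.

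Low genes were removed in edgeR 4.0.16 (filterByExpr with a minimum of 10 counts and 15 in total), and the rest were scaled by TMM and fitted with the quasi-likelihood model over all 6 libraries in R 4.3.3, and p-values of the 15055 genes were adjusted by Benjamini-Hochberg, with a threshold of 0.05. The fit had 3 residual degrees of freedom. The standard error of a log2 fold change is its size over the square root of the F statistic. CPM use the TMM-scaled totals of tested genes. Ratios of pooled levels carry exact 95% binomial intervals. The depth was 13.6 to 21.8 (in units of 1e6 counts) per library. The code was tested on simulated data.

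Positions come from GENCODE M21 (GRCm38, the assembly of mm10), where 53292 symbols matched, and promoter windows from RefSeq (GRCm38.p6). Alignments used Biopython 1.88, exact tests scipy 1.17.1 and figures matplotlib 3.10.9.

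The 7 members and the 10 gene lists were chosen with earlier results of these data known. Named were all members, up to 4 genes per list and comparison with the largest absolute log2 fold change among those past the threshold whose groups did not overlap and whose higher mean was at least 10 CPM, genes within 100 kb of a member with at least 1 CPM, the 3 nearest profiles per member (log2 CPM with a prior count of 2), and Tlr4, Il6, Lcn2 and Pdpn. The text names part of these, 1 gene of a list is not reported here, and Ccl3, Ccl4, Elane, Hsdl1, markers at 0 and genes given as examples of the WAP list were picked after their values were seen. Alternatives were another scaling (size factors of DESeq2, or library totals), another filter (none, or 10 counts in each library of some group), a block for the replicate number, each library left out, fits of the 2 groups compared, the Wald test of DESeq2 1.42.0 and thinning to the smallest total.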

Additional observations from a re-analysis of the deposited data

How the results depend on the processing

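No member's log2 fold change changed sign under the alternatives run, and for 4T1 against 67NR medium 5 members were called in every one. Fits without a library leave an arm with 1 library, whose spread is taken to be that of the other groups. With single libraries left out, 1 to 3 members (3 in the full fit) were called for 67NR against control medium and 4 to 5 (5 in the full fit) for 4T1 against control. Over all genes, the number called for 67NR against control was 4150 and ranged from 2207 to 5358, with 1032 to 2541 higher (1951) and 1175 to 2820 lower (2199). Genes higher in 4T1 than in control medium numbered 2995 and ranged from 1895 to 3030. List genes called for 67NR against control, 49 in all, ranged from 29 to 58. Samples with the same replicate number did not deviate together (correlations of -0.04, 0.01 and 0.07), and the replicate block gave 6057, 4382 and 6668 genes called for 4T1 against control, 67NR against control and 4T1 against 67NR medium, in place of 5888, 4150 and 6531, with 5, 3 and 5 members. The levels of Wfdc17 and Slpi outside 4T1 medium rest on few counts, so depth limits their ratios against control medium.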
